A study of Rattus norvegicus with 2 samples.

Results

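The mRNAs of the oxidative phosphorylation machinery were compared in the adrenal medulla between rats with a history of recurrent hypoglycemia and saline-treated controls. Genes were chosen by symbol, taking those that start with Nduf, Uqcr, Cox4 to Cox8 or Atp5, together with Sdha, Sdhb, Sdhc, Sdhd and Cyc1, and keeping probe sets annotated to a single gene. This gave 87 genes of 14217 measured, read by 97 probe sets. The rule itself uses symbols and no measured value. Of the 87 genes, 71 encode nuclear subunits of complexes I to V that most tissues use, and these are called the subunits below. The other 16 are 7 tissue-restricted isoforms, 6 assembly factors of complex I, 2 associated factors and 1 pseudogene. A further 7 probe sets that carry one of these symbols together with a second gene were left out, so that Atp5mc1, Atp5mc2, Cox7a2, Ndufa10, Ndufs5 and Uqcrb were not read.

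All animals were adult male Sprague-Dawley rats, whose age is not stated. The 2RH30 rats received regular human insulin by intraperitoneal injection at 2 IU/kg, 2 times per day for 3 days, with a single injection on the last of these days according to the methods of the study, and the 2RS30 rats received saline on the same schedule. Both groups were fasted overnight, underwent the same hyperinsulinemic-hypoglycemic clamp on day 4 and were killed 30 min after the target glucose was reached, so the controls had acute hypoglycemia as well. RNA of the left adrenal medulla from 6 rats was pooled and hybridized to 1 Affymetrix rat array per group, and the baseline and later arrays of the study were not analysed here. Since each condition is a single array of pooled RNA, none of the differences could be checked against replicates, p-values are not given, and the values describe these 2 pools.

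The respiratory chain lies in the inner membrane of the mitochondrion. Complexes I and II pass electrons from NADH and succinate to ubiquinone, complex III passes them on to cytochrome c, and complex IV hands them to oxygen, while complexes I, III and IV pump protons. Complex V, the ATP synthase, lets the protons flow back and makes ATP. Chromaffin cells of the adrenal medulla spend ATP on filling their granules with catecholamines and on exocytosis. Most subunits are encoded in the nucleus and a few core ones in mitochondrial DNA.

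Values are given on the log2 scale as deposited, and a difference is always the value of 2RH30 minus that of 2RS30. The arrays were not evenly scaled. Bright probe sets were on the whole higher in 2RH30 and dim ones lower, with a median difference of -0.38 in the dimmest of 20 level bins and 0.49 in the brightest. A level-adjusted difference, from which a lowess curve of this trend was subtracted, is therefore given beside the deposited one, and is called adjusted below. On the 2RS30 array 7 values, lying between 3.68 and 6.92, are each shared by 100 or more probe sets and together hold 2120 of 31042 probe sets (6.83%), whereas on the 2RH30 array no value is shared by more than 25. The bioB hybridization control differed by -3.51 to -3.03 and the cre control by -0.58 to -0.30. Not all controls were lower in 2RH30. The dap controls differed by 0.33 to 1.84, the thr controls by -0.07 to 1.84 and the GAPDH probe sets by 0.48 to 0.78, whereas the trpn control differed by -1.86 to -1.47. Their part in the results below was not tested. Adjusted differences of probe sets of the same gene had an SD of 0.857 at mean levels under 7 (1989 genes) and 0.644 at 7 and above (550 genes). Probe sets under the median of each array on both arrays were left out of this SD, which holds no spread between animals.

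Most subunit mRNAs had the higher value in the hypoglycemia pool. As deposited, 62 of 71 subunits had a difference above 0 (87.3%), beside 56.1% of all genes, and 9 were below 0, beside 43.8%. The median difference was 0.56, against 0.11 over all genes. A value 2-fold or more higher was found for 17 subunits (23.9%), beside 11.5% of all genes, and 0 were 2-fold or more lower, beside 9.62% of all genes. The 9 subunits below 0 were Ndufs1, Ndufs4, Ndufs6, Ndufa1, Ndufa7 and Ndufa13 of complex I, Uqcr11 of complex III, and Atp5me and Atp5mg of complex V. From bulk tissue, a smaller number of cells of a type and less RNA per cell cannot be told apart.

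Other genes of a similar level were mostly higher in 2RH30 as well. Of the 71 subunits, 43 lay among the 20% of genes with the highest mean level, above 6.84. In that range 39 of 43 subunits were above 0, beside 77.8% of 2801 other genes, and 8 were 2-fold or more higher (18.6%), beside 13.7%, while 0 were 2-fold or more lower, beside 1.5%. The medians were 0.56 for the subunits and 0.42 for the other genes. After level adjustment the median of all 71 subunits was 0.18, against 0.02 over all genes, and 46 of 71 lay above 0 (64.8%), beside 51.2% of all genes. Level-adjusted, 10 subunits were 2-fold or more higher (14.1%), beside 8.95% of all genes, and 1 was 2-fold or more lower (1.41%), beside 9.31%. Among the brightest 20%, 25 of 43 subunits were above 0 after adjustment, beside 48.8% of the other genes, with 4 that were 2-fold or more higher (9.3%), beside 4.43%, and 1 lower (2.33%), beside 4.14%. The 28 subunits of lower level, 2 of them dim, had a median of 0.30 after adjustment. Beside it stood -0.01 for 7025 genes of lower level that were not dim. Of the 28, 21 were above 0 (75%), beside 49.6% of the 7025, and 6 were 2-fold or more higher (21.4%), beside 11.8%. The sets are not quite alike, since the 6 include the dim Ndufb5 and the 7025 hold no dim gene.

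**Figure D1:**
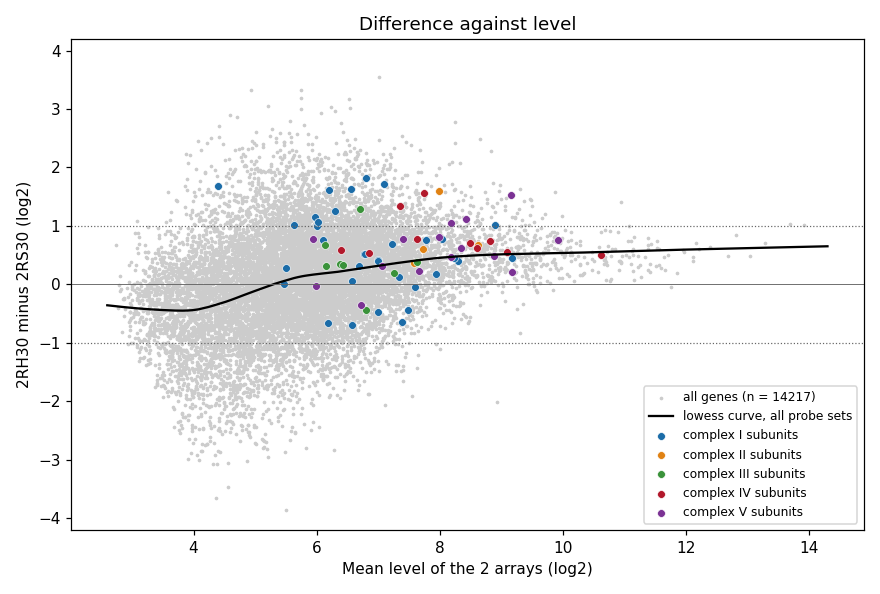
The vertical axis gives 2RH30 minus 2RS30 on the log2 scale and the horizontal axis the mean log2 level of the pair of arrays, for all 14217 genes (grey) and for the subunits of each complex (coloured), with the lowess curve used for level adjustment (black) and dotted lines at a 2-fold difference. The curve rises with level, and 46 of 71 subunits lie above it.

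Probe sets of one gene gave a yardstick for single subunits. As deposited, 28 subunits were higher and 1 was lower by a difference that exceeded the SD at their level, and after adjustment 14 higher and 4 lower ones did. These are 39.4% and 1.41% of the subunits as deposited, beside 17.6% and 12.7% of all genes, and 19.7% and 5.63% after adjustment, beside 13% of all genes in either direction. Only 7 subunits had more than 1 probe set, and their probe sets had the same sign for 4 of 7 as deposited and for 3 of 7 after adjustment. The SD was taken from adjusted differences, while deposited ones still hold the trend with level. Exceeding this SD does not establish a difference between the groups. Ndufb5 and Ndufb6 were the 2 dim subunits, with values under the median of each array on both arrays.

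**Figure D2:**
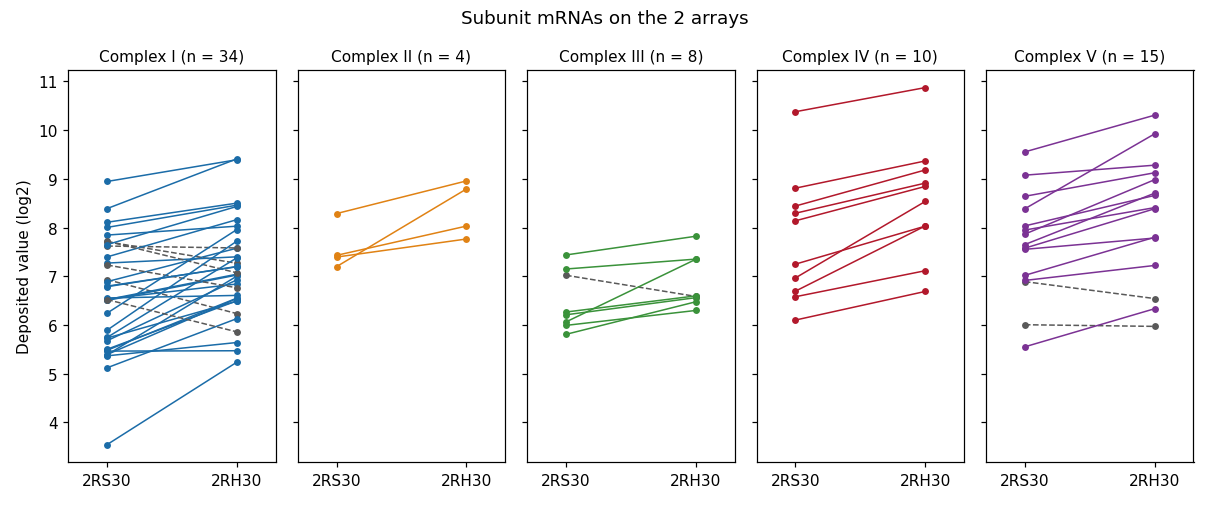
Deposited values (log2, vertical axis) of each subunit on the 2RS30 and 2RH30 arrays, 1 panel per complex, with a line joining the values of a gene. Coloured solid lines mark genes that were higher in 2RH30 and grey dashed lines genes that were lower. All 4 subunits of complex II and all 10 of complex IV were higher in 2RH30, whereas 6 of 34 in complex I, 1 of 8 in complex III and 2 of 15 in complex V were lower.

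Complex I, the NADH:ubiquinone oxidoreductase, was read through 34 nuclear subunits and had the widest range of the 5 complexes. The median difference was 0.49 (adjusted 0.22), and single subunits ranged from -0.70 to 1.83 (adjusted -1.02 to 2.03). As deposited 28 were above 0 (82.4%), beside 56.1% of all genes, and 10 of them were 2-fold or more higher (29.4%), beside 11.5%. After adjustment 21 were above 0 (61.8%), beside 51.2% of all genes. On that scale 6 were 2-fold or more higher (17.6%), beside 8.95%, and 1 was lower (2.94%), beside 9.31%.

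The module of complex I that oxidises NADH held the subunit with the highest deposited difference and the one with the lowest adjusted difference of all 71. Of its 8 subunits, 5 were above 0 on either scale. Ndufv3, a small accessory subunit of this module, stood at 5.89 in 2RS30 against 7.72 in 2RH30 (2RH30 minus 2RS30, 1.83 deposited and 1.54 adjusted). Its other probe set read 5.24 and 7.98, a difference of 2.74 (adjusted 2.48), so both went the same way. Ndufv1, which binds the flavin and receives electrons from NADH, differed by 0.78 (adjusted 0.32), and Ndufv2, an iron-sulfur subunit beside it, by 0.40 (adjusted 0.08). Ndufs1, the largest subunit of the complex and a carrier of iron-sulfur clusters, went the other way, from 7.72 in 2RS30 to 7.07 in 2RH30, a difference of -0.65. After adjustment it was -1.02, the only subunit 2-fold or more lower on that scale. Ndufs4 and Ndufs6, accessory subunits of the same module, had differences of -0.66 and -0.47 (adjusted -0.86 and -0.78), while Ndufa2 and Ndufa12 had 0.76 and 0.69 (adjusted 0.57 and 0.33). Core and accessory subunits of one module thus lay on both sides of 0 in the same pair of pools.

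The module that reduces ubiquinone was read through 4 subunits, all above 0 as deposited and 2 of 4 after adjustment. Ndufs8, an iron-sulfur subunit that lies on the electron path to ubiquinone, stood at 6.24 in 2RS30 against 7.96 in 2RH30 (2RH30 minus 2RS30, 1.72 deposited and 1.38 adjusted). Ndufs3, a core subunit of the same module, differed by 1.07 (adjusted 0.89). Ndufs7, which carries the last iron-sulfur cluster before ubiquinone, differed by 0.46 (adjusted -0.02), and the accessory Ndufa5 by 0.13 (adjusted -0.24). Over the 6 core subunits read, the median was 0.62 (adjusted 0.20), and over the 28 accessory subunits it was 0.48 (adjusted 0.22).

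The membrane arm was read here through the Ndufb and Ndufc subunits only. All 13 of these were above 0 as deposited and 8 of 13 after adjustment. Ndufa1, a membrane subunit that was below 0, is counted with the remaining accessory subunits, so the count does not cover the whole arm. The Ndufb and Ndufc subunits surround the proton-pumping subunits that mitochondrial DNA encodes. Ndufb2 stood at 5.75 in 2RS30 against 7.38 in 2RH30 (2RH30 minus 2RS30, 1.63 deposited and 1.38 adjusted). Ndufb3 read 5.39 and 7.0, a difference of 1.61 (adjusted 1.42), and Ndufb1 read 5.68 and 6.93, a difference of 1.25 (adjusted 1.04). Ndufb5 had the highest level-adjusted difference of all subunits, 2.03 (1.69 as deposited), but its 2RS30 value of 3.55 lay under the 5th percentile of that array, 3.67, and its 2RH30 value was 5.24. The size of its difference is therefore uncertain. Ndufb10 differed by 1.01 (adjusted 0.90). At the other end of this arm, Ndufb11 differed by 0.18 (adjusted -0.27) and Ndufc1 by 0.05 (adjusted -0.20).

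The remaining 9 accessory subunits of complex I had a median of 0.52 (adjusted 0.24). Ndufa1, a small membrane subunit, stood at 6.93 in 2RS30 against 6.23 in 2RH30 (2RH30 minus 2RS30, -0.70 deposited and -0.95 adjusted), the lowest deposited difference among all 71 subunits. Ndufa13, also known as GRIM-19, differed by -0.44 (adjusted -0.83). Ndufa6 and Ndufa8 lay at the high end with 1.15 and 1.02 (adjusted 0.98 and 0.51), and Ndufab1, the mitochondrial acyl carrier protein, differed by 0.99 (adjusted 0.82). The brighter probe set of Ndufa9 differed by 0.76 (adjusted 0.33) and its other one, which holds the shared 2RS30 value of 5.55, by -1.03 (adjusted -0.93), so its direction depends on the probe set.

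All 4 subunits of complex II, the succinate dehydrogenase that also belongs to the TCA cycle, were higher in 2RH30 as deposited, with a median of 0.63 (adjusted 0.17). Sdha, the flavoprotein that oxidises succinate, stood at 7.20 in 2RS30 against 8.79 in 2RH30 (2RH30 minus 2RS30, 1.59 deposited and 1.14 adjusted). It was the only one of the 4 that was 2-fold or more higher. Sdhb, the iron-sulfur subunit, read 8.29 and 8.96, a difference of 0.67 (adjusted 0.17). Sdhc and Sdhd anchor the complex in the membrane. Sdhc read 7.39 and 7.76, a difference of 0.37 (adjusted -0.03). Sdhd read 7.43 and 8.03, a difference of 0.60 (adjusted 0.18), and its dimmer probe set differed by 1.19 (adjusted 1.01).

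Complex III, the cytochrome bc1 complex, was read through 8 subunits and had the lowest median of the 5 complexes, 0.34 (adjusted 0.11). Uqcrfs1, the Rieske iron-sulfur protein, stood at 6.06 in 2RS30 against 7.35 in 2RH30 (2RH30 minus 2RS30, 1.28 deposited and 1.01 adjusted), and was the only one 2-fold or more higher. Cyc1, which encodes cytochrome c1 and hands electrons to cytochrome c, differed by 0.35 (adjusted 0.13). The core proteins Uqcrc1 and Uqcrc2 differed by 0.33 and 0.38 (adjusted 0.10 and -0.03), and the second probe set of Uqcrc2 by 0.25 (adjusted -0.06). Among the small subunits, Uqcrh, the hinge protein, differed by 0.67 (adjusted 0.48), Uqcr10 by 0.31 (adjusted 0.11) and Uqcrq by 0.20 (adjusted -0.15). Uqcr11 read 7.02 and 6.59, a difference of -0.43 (adjusted -0.72), the only subunit of this complex below 0 as deposited.

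Complex IV, cytochrome c oxidase, had the narrowest range of deposited differences of the 5 complexes. All 10 subunits were above 0 as deposited, beside 56.1% of all genes, between 0.49 and 1.57 with a median of 0.66. After adjustment 9 of 10 were above 0, beside 51.2% of all genes, between -0.06 and 1.14 with a median of 0.24. Cox4i1, a subunit through which ATP regulates the enzyme, stood at 6.97 in 2RS30 against 8.53 in 2RH30 (2RH30 minus 2RS30, 1.57 deposited and 1.14 adjusted). Cox6b1, which links the monomers of the dimeric enzyme on the intermembrane side, read 6.69 and 8.03, a difference of 1.34 (adjusted 0.96). The other 8 subunits, among them Ndufa4, now assigned to this complex, lay between 0.49 and 0.78 (adjusted -0.06 to 0.37). Cox5a and Cox6a1 were the lowest after adjustment, at -0.06 and 0.04, with 10.38 and 8.81 in 2RS30 and 10.87 and 9.37 in 2RH30.

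The subunits of cytochrome c oxidase that mitochondrial DNA encodes, which the rule did not take, were on the array as COX1 and COX2. COX1 stood at 11.78 in 2RS30 against 11.73 in 2RH30 (2RH30 minus 2RS30, -0.05 deposited and -0.64 adjusted). COX2 read 11.46 and 11.74, a difference of 0.28 (adjusted -0.30). Both lay below each of the 10 nuclear subunits of the complex on either scale. The difference between the nuclear and the mitochondrial genes was not tested.

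Complex V, the ATP synthase, was read through 15 subunits, with a median of 0.62 (adjusted 0.14). As deposited 13 of them were above 0 (86.7%), beside 56.1% of all genes, and after adjustment 8 were (53.3%), beside 51.2%. A value 2-fold or more higher was found for 3 as deposited (20%), beside 11.5%, and for 1 after adjustment (6.67%), beside 8.95%. On either scale 0 were 2-fold or more lower, beside 9.62% and 9.31% of all genes. The 5 subunits of the catalytic F1 head were above 0 on both scales, with a median of 1.05 (adjusted 0.58). Atp5f1d, the delta subunit of the central stalk, stood at 8.39 in 2RS30 against 9.92 in 2RH30 (2RH30 minus 2RS30, 1.54 deposited and 1.02 adjusted). Atp5f1c, the gamma subunit that turns inside the head, read 7.86 and 8.98, a difference of 1.12 (adjusted 0.63), and Atp5f1e, the epsilon subunit, read 7.65 and 8.70, a difference of 1.05 (adjusted 0.58). The alpha and beta subunits, Atp5f1a and Atp5f1b, which form the catalytic sites, differed by 0.62 and 0.75 (adjusted 0.14 and 0.22). The 3 subunits of the central stalk thus had larger differences than the alpha and beta subunits. Each of these genes was read from 1 probe set, and the SD between probe sets at this level is 0.644, so the order is uncertain. Of the 5 other membrane subunits, Atp5me, Atp5mf, Atp5mg, Atp5mk and Atp5mpl, 3 were above 0 as deposited and 0 after adjustment, with medians of 0.31 and -0.03. Atp5me read 6.89 and 6.54, a difference of -0.35 (adjusted -0.62), but its other probe set, which was dim, differed by 0.11 (adjusted 0.56).

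The peripheral stalk, which keeps the F1 head from turning, was above 0 for 4 of 4 subunits as deposited and 2 of 4 after adjustment. Atp5pb differed by 0.81 (adjusted 0.36), Atp5pf by 0.23 (adjusted -0.18) and Atp5pd by 0.20 (adjusted -0.31). Atp5po differed by 0.78 (adjusted 0.61), but its 2RS30 value of 5.55 is the one that 468 probe sets share, and its other probe set, which was dim, differed by -0.39 (adjusted -0.30). It is the only subunit that was read from such a shared value. Of the c-ring genes, which encode the rotor through which protons pass, Atp5mc3 was read, with 7.02 in 2RS30 against 7.80 in 2RH30 and thus a difference of 0.78 (adjusted 0.40). The inhibitor Atp5if1, which blocks ATP hydrolysis by the enzyme, differed by 0.72 (adjusted 0.43), and its other probe sets by 1.01 and -0.78 (adjusted 0.86 and -0.33).

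**Figure D3:**
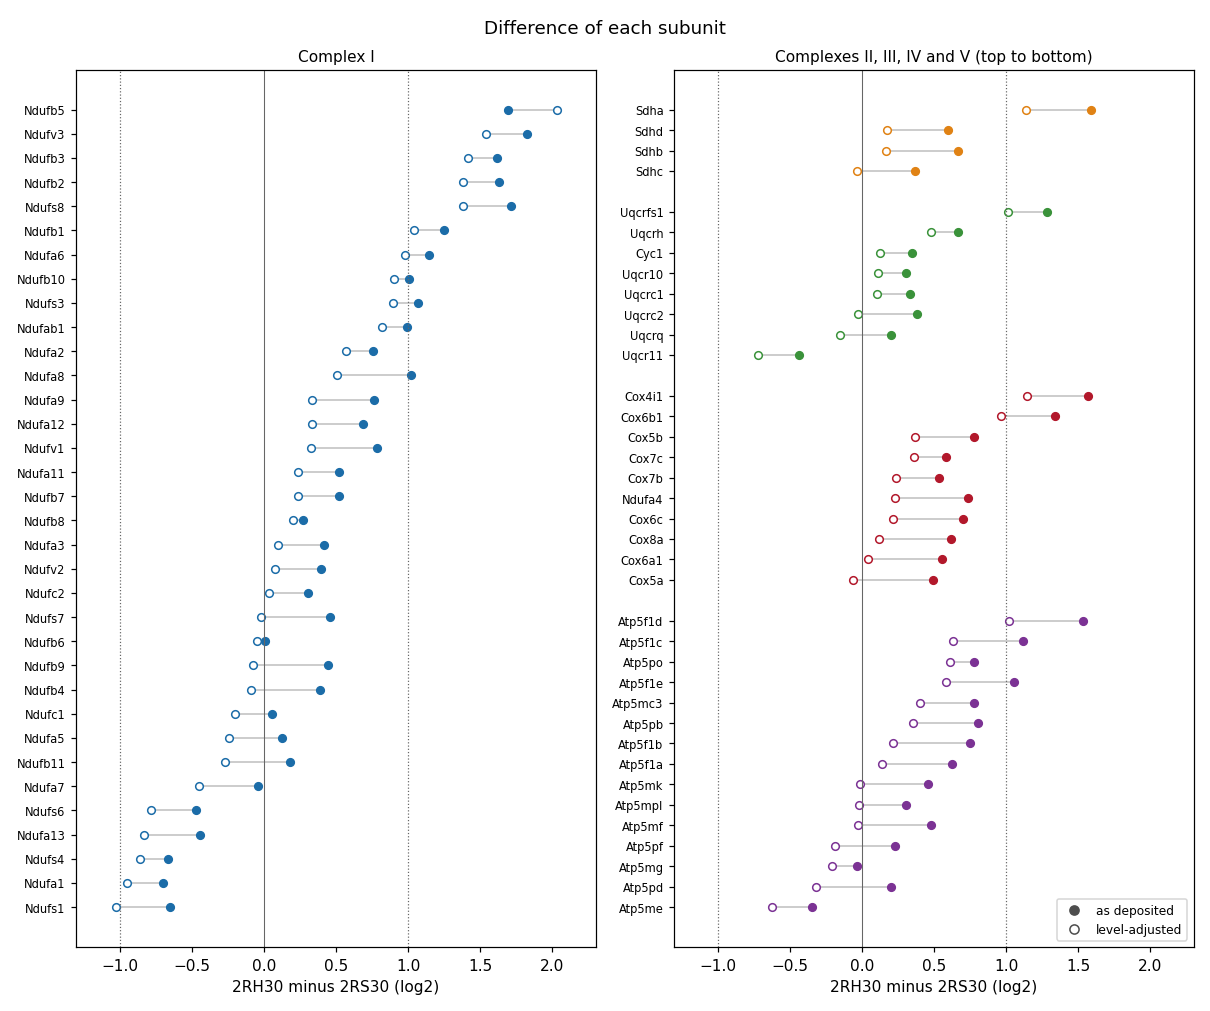
Each of the 71 subunits (vertical axis) is placed by 2RH30 minus 2RS30 on the log2 scale (horizontal axis), with filled points for deposited and open points for level-adjusted values, ordered within each complex by the level-adjusted value, with dotted lines at a 2-fold difference. As deposited 17 subunits lie at or beyond 1 and 0 at or beyond -1, and level-adjusted 10 and 1 do.

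The isoforms of complex IV that muscle, lung or testis favour lay between -1.03 and 0.99 as deposited. Of 7 measured, 4 were above 0 on either scale (57.1%), beside 56.1% of all genes as deposited and 51.2% after adjustment. On either scale 0 were 2-fold or more higher, beside 11.5% of all genes as deposited and 8.95% after adjustment. Cox7b2 alone was 2-fold lower as deposited (14.3%), beside 9.62% of all genes. Cox4i2, the isoform best known from lung, stood at 5.62 in 2RS30 against 5.84 in 2RH30 (2RH30 minus 2RS30, 0.23 deposited and 0.10 adjusted), beside 1.57 for Cox4i1. Cox6a2 and Cox8b, the isoforms of heart and skeletal muscle, differed by 0.99 and 0.93 (adjusted 0.94 and 0.81), against 0.56 and 0.62 (adjusted 0.04 and 0.12) for the ubiquitous Cox6a1 and Cox8a. Cox7a1, also a muscle isoform, differed by -0.36 (adjusted -0.49). Cox7b2 was dim and had a difference of -1.03 (adjusted -0.84), Cox6b2 differed by 0.33 (adjusted 0.21) and Ndufa4l2 by -0.01 (adjusted -0.33). The SD between probe sets at these levels, 0.857, is larger than each of the differences of Cox4i2, Cox6b2, Cox7a1 and Ndufa4l2 on both scales. Of the other members by symbol, the supercomplex factor Cox7a2l differed by 0.47 (adjusted 0.25) and the pseudogene Cox6c-ps1 by -0.30 (adjusted -0.47).

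Promoters of respiratory chain genes are known for binding sites of NRF1, of the ETS factor GABP and of YY1. These letters were looked for on both strands in the 300 bases from 250 before to 50 after the start of transcription, in RefSeq sequences of the GRCr8 assembly, which matched 64 of the 71 subunits. The core letters of the NRF1 motif, CGCATGCG, were found in 6 of 64 subunit promoters (9.38%), beside 1.81% of all 27457 promoters and 3.09% of the 11700 promoters of measured genes. The GABP motif CCGGAAG was found in 20 (31.2%), beside 9.22% of all promoters and 15.1% of those of measured genes, and the YY1 motif AAGATGG in 18 (28.1%), beside 7.30% and 7.84%. Of the 18 promoters with the YY1 motif, 4 hold it within the 250 bases before the start and 14 do not, whereas for GABP 19 of 20 and for NRF1 6 of 6 do. At least 1 of the 3 was in 33 subunit promoters (51.6%), beside 16.9% of all promoters and 23.4% of those of measured genes. The 33 subunits with a motif had a median difference of 0.48 (adjusted 0.12), and the 31 without had 0.78 (adjusted 0.33). As deposited, 4 of the 33 subunits with a motif and 12 of the 31 without were 2-fold or more higher, beside 11.5% of all genes. The shares for all genes with and without a motif are not given here. Subunits without a promoter entry are in neither set. These sets were not tested against each other.
A few promoters that hold a motif are shown, from genes toward the high or the low side of the range of differences, with motifs of each kind in capitals. They are the 250 bases before the start that RefSeq's promoter table uses, which for Ndufs8, Cox6b1 and Atp5me lies inside the annotated gene, printed in the direction of transcription and chosen after the values were seen. Ndufs8 (chr1:210573699-210573948, minus strand) and Cox6b1 (chr1:95009853-95010102, minus strand) were 2-fold or more higher as deposited. Ndufv3, with a larger difference than either, holds none of the 3 motifs in these bases. Ndufs1 (chr9:72073606-72073855, minus strand) and Atp5me (chr14:1464610-1464859, plus strand) were below 0, and the last holds all 3 motifs. The other probe set of Atp5me, which was dim, differed by 0.11 (adjusted 0.56).
Ndufs8: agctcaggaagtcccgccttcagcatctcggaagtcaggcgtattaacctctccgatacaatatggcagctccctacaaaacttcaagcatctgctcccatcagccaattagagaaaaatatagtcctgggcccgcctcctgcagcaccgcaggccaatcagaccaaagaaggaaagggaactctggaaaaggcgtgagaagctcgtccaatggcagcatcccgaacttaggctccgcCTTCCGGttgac
Cox6b1: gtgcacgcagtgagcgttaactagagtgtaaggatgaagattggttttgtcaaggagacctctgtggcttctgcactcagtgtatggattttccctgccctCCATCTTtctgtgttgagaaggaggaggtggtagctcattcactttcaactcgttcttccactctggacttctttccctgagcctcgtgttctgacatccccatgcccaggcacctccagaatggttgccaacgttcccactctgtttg
Ndufs1: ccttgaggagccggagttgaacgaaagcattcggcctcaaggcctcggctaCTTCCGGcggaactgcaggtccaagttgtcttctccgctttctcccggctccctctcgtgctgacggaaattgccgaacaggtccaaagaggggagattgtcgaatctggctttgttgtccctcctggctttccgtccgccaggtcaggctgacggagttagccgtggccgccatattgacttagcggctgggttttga
Atp5me: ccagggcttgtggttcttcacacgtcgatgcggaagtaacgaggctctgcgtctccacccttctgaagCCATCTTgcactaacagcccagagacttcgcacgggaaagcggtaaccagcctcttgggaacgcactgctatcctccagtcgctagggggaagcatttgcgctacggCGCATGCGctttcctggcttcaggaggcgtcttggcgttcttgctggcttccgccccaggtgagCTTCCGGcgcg
The GABP motif thus stands before Ndufs8, with a difference of 1.72, and before Ndufs1 and Atp5me, with differences of -0.65 and -0.35, and the YY1 motif before Cox6b1, with 1.34, and Atp5me. A match describes letters, and no match says nothing about binding.

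The factors themselves were read from single genes named here for their motifs. Nrf1 stood at 6.55 in 2RS30 against 6.56 in 2RH30 (2RH30 minus 2RS30, 0.00 deposited and -0.24 adjusted). Yy1 differed by 0.79 (adjusted 0.26). Gabpa and Gabpb1, which encode the GABP subunits, were dim and differed by -1.12 and -0.71 (adjusted -0.69 and -0.39). Of 22 measured genes for transcriptional regulators of mitochondrial genes, 11 were above 0 as deposited and 8 after adjustment, and their median was -0.01 (adjusted -0.19). Ppargc1b, a coactivator of respiratory chain genes, had the lowest value, from 6.36 in 2RS30 to 3.65 in 2RH30, a difference of -2.71 (adjusted -2.61). Ppargc1a, its better known relative, was dim and differed by -1.03 (adjusted -0.84). Sirt3, a mitochondrial deacetylase, was the highest by adjusted difference among regulators that were not dim, at 1.12 (adjusted 1.05), and Ppara, a receptor that drives fatty acid oxidation genes, the highest as deposited, at 1.2 (adjusted 1.03). As deposited 4 regulators were 2-fold or more higher (18.2%), beside 11.5% of all genes, and 5 were lower (22.7%), beside 9.62%. After adjustment 4 were higher (18.2%), beside 8.95% of all genes, and 3 were lower (13.6%), beside 9.31%. The higher ones include the dim Pparg and Perm1 on either scale, at 1.83 and 1.16 after adjustment. Pparg had the highest adjusted difference of all the regulators.

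Proteins that build the complexes or carry electrons between them were described from lists of their own. Of 46 measured assembly factors, 28 were above 0 as deposited (60.9%), beside 56.1% of all genes, and 24 after adjustment (52.2%), beside 51.2%, with medians of 0.28 and 0.06. As deposited 7 were 2-fold or more higher (15.2%), beside 11.5% of all genes, and 2 lower (4.35%), beside 9.62%. Bcs1l, which inserts the Rieske protein into complex III, stood at 6.20 in 2RS30 against 4.50 in 2RH30 (2RH30 minus 2RS30, -1.70 deposited and -1.72 adjusted), whereas the Rieske gene Uqcrfs1 itself was higher. Uqcc2, another assembly factor of complex III, was the highest at 1.86 (adjusted 1.62), from the shared 2RS30 value of 5.55. Of the 6 assembly factors that the symbol rule took, Ndufaf3 differed by 1.45 (adjusted 1.18) and Ndufaf4, which was dim, by -1.14 (adjusted -0.96). The 15 measured genes for electron carriers, which make ubiquinone or pass electrons to it, had a median of 0.41 (adjusted 0.26), with 4 that were 2-fold or more higher (26.7%) and 0 lower as deposited, beside 11.5% and 9.62% of all genes. Coq10a, a ubiquinone-binding protein, differed by 1.92 (adjusted 1.72), and Coq8b, a kinase-like protein of ubiquinone synthesis, by -0.83 (adjusted -1.03). The 18 genes for upkeep and expression of mitochondrial DNA had a median of -0.06 (adjusted -0.11). Among them Polg, the mitochondrial DNA polymerase, differed by 1.09 (adjusted 0.73) and Mterf3, a regulator of mitochondrial transcription, by -1.22 (adjusted -1.09).

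The medians of other gene groups are given for comparison. The TCA cycle and pyruvate dehydrogenase genes had a median of 0.60 over 16 genes (adjusted 0.42), with 14 above 0 (87.5%), beside 56.1% of all genes, and 5 that were 2-fold or more higher as deposited (31.2%), beside 11.5%. Pdhb, a pyruvate dehydrogenase subunit, was highest at 1.81 (adjusted 1.67), and Sucla2, a succinyl-CoA ligase subunit, was lowest at -0.80 (adjusted -1.03), although the mean over its probe sets was 0.26. Cytosolic ribosomal proteins had a median of 0.59 over 48 genes (adjusted 0.22), with 43 above 0 (89.6%), and mitochondrial ribosomal proteins 0.44 over 73 genes (adjusted 0.34), with 51 above 0 (69.9%). The 71 subunits, at 0.56 (adjusted 0.18), lay within the range of these 3 list medians as deposited and below it after adjustment. Here and below, the ends of a list are given for genes that were not dim, by adjusted difference. A gene that is high on either array alone is not dim, so large differences pass this rule more readily. For the ribosomal lists the ends were Rps15 at 1.65 and Rpl35a at -0.05 (adjusted 1.27 and -0.57), and Mrpl4 at 2.12 and Mrpl23 at -0.88 (adjusted 2.22 and -1.19). Mrpl4 read 3.96 in 2RS30 and 6.08 in 2RH30. Mitochondrial import genes had a median of 0.44 over 26 genes (adjusted 0.25), between Timm17b at 2.01 and Tomm7 at -1.01 (adjusted 1.66 and -1.46). The 12 genes for uncoupling and exchange across the mitochondrial membranes had a median of 0.42 (adjusted 0.08), between the ADP/ATP carrier Slc25a31 at 0.75 and the carnitine carrier Slc25a20 at -0.46 (adjusted 0.74 and -0.62).

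**Figure D4:**
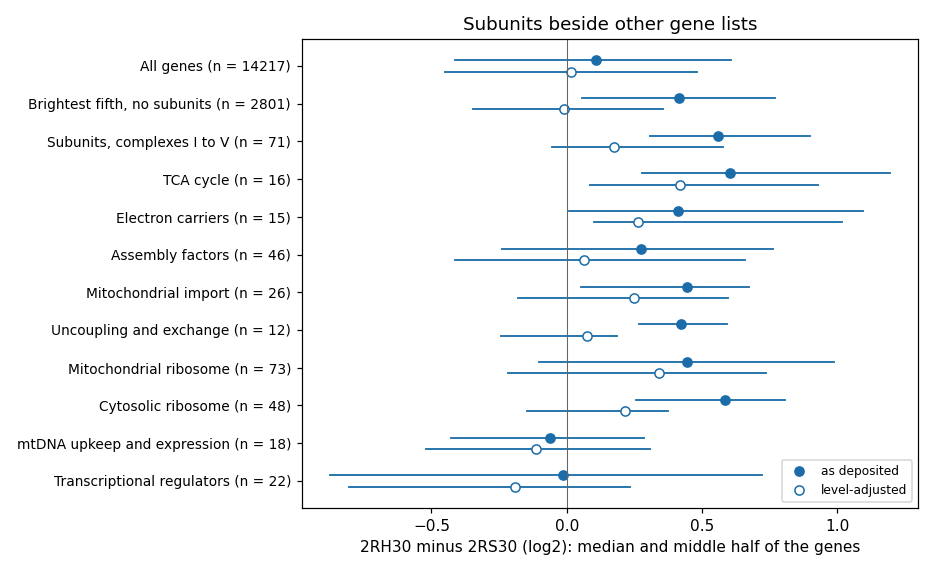
Medians of 2RH30 minus 2RS30 (log2, horizontal axis) of the subunits and of other gene lists (vertical axis, with the number of genes measured), with filled points for deposited and open points for level-adjusted values and with lines over the middle 50% of the genes. The median of the 71 subunits moves from 0.56 to 0.18 with the adjustment, and that of the brightest 20% of other genes from 0.42 to -0.01.

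Markers of the cells that the dissection could hold were read on the same arrays. All 9 chromaffin markers were measured, none was dim, and all were higher in 2RH30, with a median of 0.51 (adjusted 0.09), between Dbh at 0.95 and Pnmt at 0.31 (adjusted 0.45 and -0.27). Dbh and Pnmt, enzymes of catecholamine synthesis, were thus present on both arrays. The summed level of the 9, on the log2 scale, was 12.94 in 2RS30 and 13.46 in 2RH30. All 8 measured markers of the adrenal cortex, whose steroid-producing cells are rich in mitochondria, were present and higher too, between 8.73 and 12.92 in 2RS30 and between 9.06 and 13.64 in 2RH30, with a median difference of 0.59 (adjusted 0.04). Their summed level was 14.35 and 14.99, and the examples at the ends after adjustment were Cyp11a1 at 0.80 and Akr1b7 at 0.35 (adjusted 0.22 and -0.23). Of 5 fat markers 1 was above 0, with sums of 10.13 and 9.48, between Ucp1 at 0.29 and Cidea at -0.83 (adjusted -0.02 and -1.36). Of 6 macrophage markers 4 were above 0, with sums of 8.32 and 9.26. These markers lay between C1qa at 2.71 and Csf1r at -0.77 (adjusted 3.04 and -0.89). C1qa read only 3.06 in 2RS30, where the 5th percentile was 3.67. How large the C1qa difference was is thus uncertain. Of 5 muscle markers 2 were above 0, with sums of 12.45 and 13.27 set mostly by Myh1, at 0.85 (adjusted 0.23), while Acta1 was at -0.42 (adjusted -0.50). No marker has a value of 0 on this scale. The part of these cells in the subunit differences was not tested.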

How the data were processed

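Adrenal medulla RNA of 6 rats per group was pooled by the study, and each pool was read on a single Affymetrix rat array. The values deposited by the authors are log2 expression values of probe sets. Affymetrix Expression Console is the tool in the submitters' processing notes, where its version is absent. The methods describe quantile normalization and name GCRMA in Partek for the study's analysis, but no source used here gives the summarization of the deposited values. The log2 scale was read from their range.

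After removal of 57 control probe sets from 31099, 20826 were annotated to exactly 1 gene, from the platform annotation with symbols updated by gene number through RefSeq for GRCr8 (20758 matched). Where a gene had several probe sets, the one with the highest mean of both arrays stood for it. Calls were made at 2-fold, the threshold of the study. The level-adjusted difference subtracts a lowess curve (fraction 0.3, 3 iterations) fitted on 31042 probe sets. A probe set under the median of its array on both arrays (5.50 and 5.51) is called dim. A gene that is high on either array alone is therefore not dim, and the named ends of the lists can be low on the other array. With a single array per group no test was run, and the number of arrays limits the precision. The members and lists were chosen with earlier results of these data known. Genes were named by a rule. It took subunits 2-fold different on both scales, the 2 highest and 2 lowest subunits of complexes I, III, IV and V that were not dim, all of complex II, isoform pairs, and the highest and lowest gene of each other list that was not dim. Other genes were named after their values were seen. The lowess step was tested on simulated noise around the curve fitted to these same data, which favours recovery of that curve. The probe set step was checked on a small made-up table. The curve was fitted with statsmodels 0.14.6 and figures were drawn with matplotlib 3.10.9, under Python 3.11.15 with numpy 2.4.6 and pandas 2.3.3.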

Additional observations from a re-analysis of the deposited data

How the results depend on the processing

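The median of the 71 subunits, 0.56 as deposited, was 0.17 after quantile normalization, 0.18 after lowess, 0.18 after lowess fitted without the members and 0.16 where lowess was combined with averaging a gene's probe sets. In the same order, the median of complex I was 0.25, 0.22, 0.22 and 0.15 (0.49 as deposited), of complex II 0.15, 0.17, 0.18 and 0.38 (0.63), of complex III 0.12, 0.11, 0.11 and 0.11 (0.34), of complex IV 0.22, 0.24, 0.24 and 0.24 (0.66) and of complex V 0.12, 0.14, 0.15 and 0.14 (0.62). With the mean over probe sets alone, complex II had 0.78 and complex V 0.48. Subunits that were 2-fold or more higher numbered 17 as deposited, 11 after quantile normalization and 10 after each form of lowess, and those lower numbered 0, then 1 and 1. At 1.5-fold 35 were higher and 3 lower, and at 3-fold 6 were higher. The shares of all genes at these 2 thresholds were not computed. With all 87 genes of the symbol rule 2 were lower (2.3%), beside 9.62% of all genes. These settings change the threshold or the genes counted. Otherwise the cause was not tested. Dropping probe sets whose names end in _s_at, _x_at or _a_at left 70 subunits, without Atp5f1c, which was read from an _a_at probe set. It therefore says little about cross-matching probes. Every median recomputed under that step stayed within 0.1 and every count within 1.5 times. The same held for centring on the median, which is 0.02 over all probe sets, for symbols as the platform gives them and for leaving out dim genes. It held too on leaving out Atp5po for its shared 2RS30 value, an alternative chosen after seeing the data. No median changed sign. Of 461 alternative values of 58 named genes, 457 stayed within the SD between a gene's probe sets and 4 moved further, for Myh1 and Sucla2. Of the 461, 28 changed sign, all in genes under 2-fold. For a gene with 1 probe set, averaging probe sets or leaving out dim genes returns the deposited value itself. The count of 457 was thus in part fixed by the settings and says little about how stable the values are. No paired analysis was possible because a single array stands for each condition. The deposited values carry no measure of background.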
